A study of Mus musculus with 10 samples.

Results

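Msi1 and Msi2 encode Musashi1 and Musashi2, the proteins whose bound RNA was recovered in this experiment. Described here are the mRNAs of both genes themselves, chosen by name as the rows of the count table whose Ensembl gene IDs belong to Msi1 (ENSMUSG00000054256) and Msi2 (ENSMUSG00000069769). They are 2 of the 55416 genes in the table.

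The study used RNA immunoprecipitation sequencing (RIP-seq), in which an antibody pulls a protein from a lysate and the RNA that comes with it is sequenced. Every lysate was made from 6 pituitaries of sighted control mice (FVB.129P2-Pde6b+Tyrc-ch/Ant) aged 8 to 10 weeks, and was divided equally. One portion received a rabbit antibody control (IgG), and the other received antibodies to Musashi1 and to Musashi2 pooled together (Musashi IP), so RNA bound by Musashi1 cannot be told apart from RNA bound by Musashi2. The libraries came from 5 lysates, numbered 2, 5 and 6 from females and 3 and 7 from males, giving 5 IgG and 5 Musashi IP libraries. The protocol states 6 immunoprecipitation occasions, 3 per sex, and the third male lysate was not analysed here. No input library (unprecipitated RNA) was analysed here, so the IgG libraries serve as the background of RNA recovered without a Musashi antibody.

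Musashi proteins bind single-stranded RNA through a pair of RNA recognition motifs (RRMs), mainly at short UAG-containing elements in 3' untranslated regions (3' UTRs), and repress or activate translation of the bound mRNA. They are known for their roles in neural and other stem cells, and in the pituitary they have been described in stem cells and in hormone-producing cells. The comparison of Musashi IP with IgG asks which pituitary mRNAs come down with Musashi, and for Msi1 and Msi2 it asks whether the proteins' own mRNAs are among them.

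The elements that a Musashi protein could meet in these mRNAs were read from GENCODE release M21, an annotation on the mouse build GRCm38. The motif searched was GUAGU, with A allowed for its first base and a run of 2 or 3 U allowed in place of its first U (as in AUUUAGU), on the mRNA strand only and with overlapping matches allowed. Of 13789 tested protein-coding genes with an annotated 3' UTR of at least 100 nt, 74.6% held at least 1 match. The longest annotated 3' UTR of Msi1 is 1895 nt long and held 1 match. That of Msi2 is 5310 nt long and held 10. The single Msi1 site is shown with 3 Msi2 sites that lie close together near the start of the 3' UTR and the only 2 Msi2 sites with more than 1 U before AGU. Capitals mark the motif, and positions count from 1 at the first base after the stop codon.
Msi1, position 1484: gcgcggcuGUUAGUguuuguug
Msi2, position 327: cacauuugGUAGUgauuuuug
Msi2, position 350: uuagucugGUAGUcacccagc
Msi2, position 386: agcuaaccAUAGUauacuugu
Msi2, position 3167: gguucaucAUUAGUacccccac
Msi2, position 4661: acauggcuAUUUAGUaaucagaa

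The other 5 Msi2 sites lie at positions 1853, 2596, 2670, 4071 and 5022 and have 1 U, as GUAGU or AUAGU. A match describes letters in the annotated sequence and is not a measured binding site.

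The tissue and depth were checked over all libraries. IgG libraries held 6.67 to 9.35 M counts (7.62 ± 1.08, mean ± SD, n = 5) and Musashi IP libraries 8.74 to 13.0 M (10.4 ± 1.89, n = 5). Anterior pituitary hormone and factor mRNAs were abundant, at a summed 13200 to 51500 CPM (counts scaled to a common library size) for 8 markers in IgG and 14600 to 40000 in Musashi IP. The 5 posterior lobe markers summed to 51.2 to 110 CPM in IgG and 61.3 to 110 in Musashi IP, most of it from Col25a1 (6954 counts over all 10 libraries), while the lobe's peptide genes Avp and Oxt had 71 and 84 counts. Lysate 6 stood apart from the others. The log2 ratios of Musashi IP over IgG of all tested genes had an SD of 1.03 there and of 0.48 to 0.632 in the other lysates, and the antibody and sex results for Msi1 and Msi2 are therefore also given without it.

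Both Musashi mRNAs were more abundant in Musashi IP than in IgG, Msi1 by 1.53-fold and Msi2 by 1.70-fold, and both were higher in 5 of 5 lysates, as were 22.4% of the genes tested. These were moderate values among the mRNAs that rose. Msi2 mRNA was also the more abundant of the pair in every library.

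Msi1 had 588, 466, 360, 391 and 305 counts in the IgG libraries of lysates 2, 3, 5, 6 and 7, and 755, 676, 715, 968 and 695 in the matching Musashi IP libraries. After scaling by library size with TMM factors (trimmed mean of M values), its IgG levels were 65.8, 62.8, 46.7, 45.4 and 40.0 CPM in the same order. Its Musashi IP levels were 90.3, 73.4, 77.2, 94.8 and 59.9 CPM. Every lysate gave more Msi1 in Musashi IP than in its own IgG library, but the groups overlapped: the Musashi IP library of lysate 7 lay below the IgG libraries of lysates 2 and 3. The group levels were 52.1 ± 11.4 CPM in IgG and 79.1 ± 13.9 CPM in Musashi IP (SD, n = 5 each). The difference was 0.61 on the log2 scale (SE 0.128, 95% interval 0.319 to 0.901), with an adjusted p of 0.0113 by edgeR's quasi-likelihood test with the lysate as a block and Benjamini-Hochberg adjustment over 20550 genes. Of the genes tested, 18.5% passed as higher in Musashi IP and 8.4% as lower (26.9% in either direction). Scaled by library totals in place of TMM, 3153 genes passed as higher and 4068 as lower, beside 3804 and 1727 with TMM. The Msi1 call was lost without lysate 5, where the log2 difference was 0.58 with an adjusted p of 0.0614 by the same edgeR test. In that fit 1676 genes passed as higher and 187 as lower, so calls were lost over all genes. Without lysate 6 it was 0.50 with an adjusted p of 0.00379. After correction for length (union of annotated exons) and GC content (longest transcript) it was 0.31 (adjusted p 0.0488). In a fit of protein-coding genes alone it was 0.40 (adjusted p 0.0139).

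Msi2 had 2943, 2740, 2706, 2790 and 2519 counts in IgG and 3999, 4138, 5738, 8804 and 6540 in Musashi IP, again in lysates 2, 3, 5, 6 and 7. Its IgG levels were 329, 369, 351, 324 and 330 CPM, and its Musashi IP levels were 478, 449, 620, 862 and 564 CPM. The IgG libraries lay close together, the Musashi IP libraries spread widely with lysate 6 highest, and the groups did not overlap. Such a separation was seen for 9.7% of the genes tested. The group levels were 341 ± 19.1 CPM in IgG and 595 ± 164 CPM in Musashi IP (SD, n = 5 each). The log2 difference was 0.77 (SE 0.149, 95% interval 0.427 to 1.1), with an adjusted p of 0.0085 by edgeR. Without lysate 6 it was 0.61 with an adjusted p of 0.00082. After correction for length and GC content it was 0.69 (edgeR adjusted p 0.00502), and in a fit of protein-coding genes alone 0.56 (edgeR adjusted p 0.00688). With single lysates left out, the adjusted p by edgeR reached at most 0.0479.

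**Figure D1:**
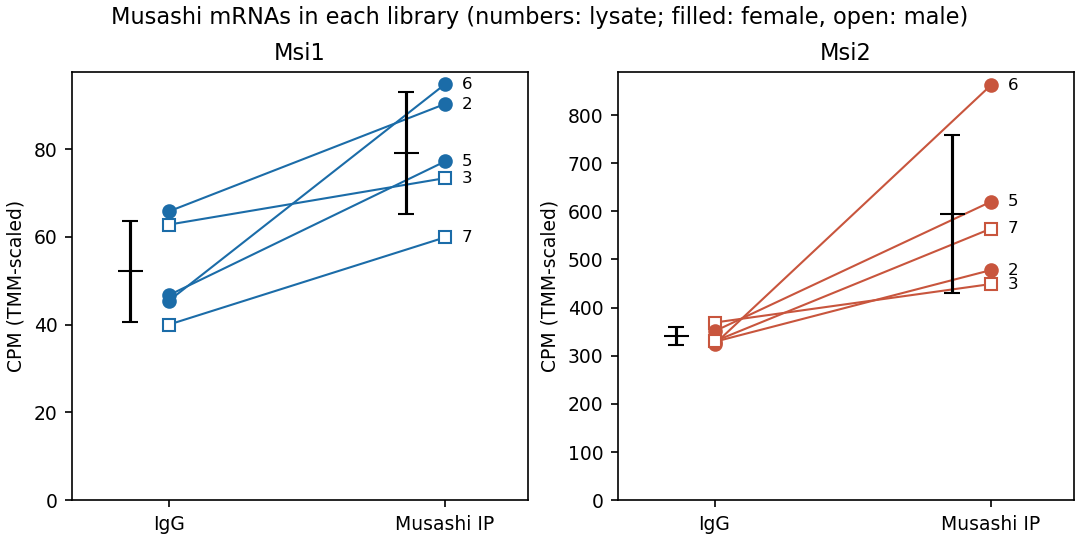
Level of Msi1 (left) and Msi2 (right) mRNA in CPM, after TMM scaling, in each of 10 libraries. Lines join the IgG and Musashi IP libraries of 1 lysate, filled circles are female and open squares male lysates, and the black bars show the mean and SD of 5 libraries; every line rises, and the groups overlap for Msi1 (the lowest Musashi IP library is at 59.9 CPM, the highest IgG library at 65.8) but not for Msi2.

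Counting error was small beside the spread between lysates, but less so for Msi2 in IgG (324 to 369 CPM after TMM scaling). Before TMM scaling, Msi1 in the IgG library of lysate 7, its lowest count, was at 43.8 CPM with an exact binomial 95% interval of 39 to 49. Msi2 in the Musashi IP library of lysate 6, its highest count, was at 676 CPM with an interval of 662 to 690. In the IgG library of lysate 6 Msi2 was at 350 CPM with an interval of 338 to 364. These intervals cover counting error only, and the reads are not described as carrying molecular identifiers.

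Read against other genes, the recovery of the Musashi mRNAs was above the middle but not near the top. The log2 difference of Msi1 exceeded 85.2% of all tested genes and 79.7% of protein-coding ones, and that of Msi2 exceeded 88.8% and 84.6%. Among the 3804 genes that rose, ordered from the highest fold, Msi2 ranked 2203 and Msi1 2795. The median log2 difference of those 3804 genes was 0.85, and 1452 of them rose by at least 2-fold. Neither Musashi mRNA reached that size over the 5 lysates.

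After TMM scaling, the recovery varied between lysates, and it varied in the same order for both mRNAs. The within-lysate log2 ratio of Msi1 was 0.46, 0.22, 0.72, 1.06 and 0.58 in lysates 2, 3, 5, 6 and 7. That of Msi2 was 0.54, 0.28, 0.82, 1.41 and 0.77. For both, lysate 3 gave the lowest ratio, followed by lysates 2, 7, 5 and 6. Both mRNAs share the scaling factor of each library, so a shared order is partly built in. In lysate 6, Msi1 was at 49.1 CPM in IgG and 74.4 in Musashi IP before TMM scaling, and at 45.4 and 94.8 after it. Before TMM scaling, Msi1 was at 62.9 and 85.3 CPM in lysate 2 and at 43.8 and 59.3 in lysate 7. The Msi1 ratios of lysates 2 and 7 were then nearly tied. The SD of the ratios of all tested genes was 0.511, 0.48, 0.632, 1.03 and 0.598 in lysates 2, 3, 5, 6 and 7, which puts the lysates in the same order, and its part in the result was not tested. Ranked within its own lysate, Msi1 exceeded 70.7% of tested genes in lysate 3 and 82.1% to 86.4% in the other lysates. Msi2 exceeded 74.9% in lysate 3 and 87.9% to 89.0% in the others. Lysate 6, which gave the highest ratios, did not give the highest rank for either mRNA.

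**Figure D2:**
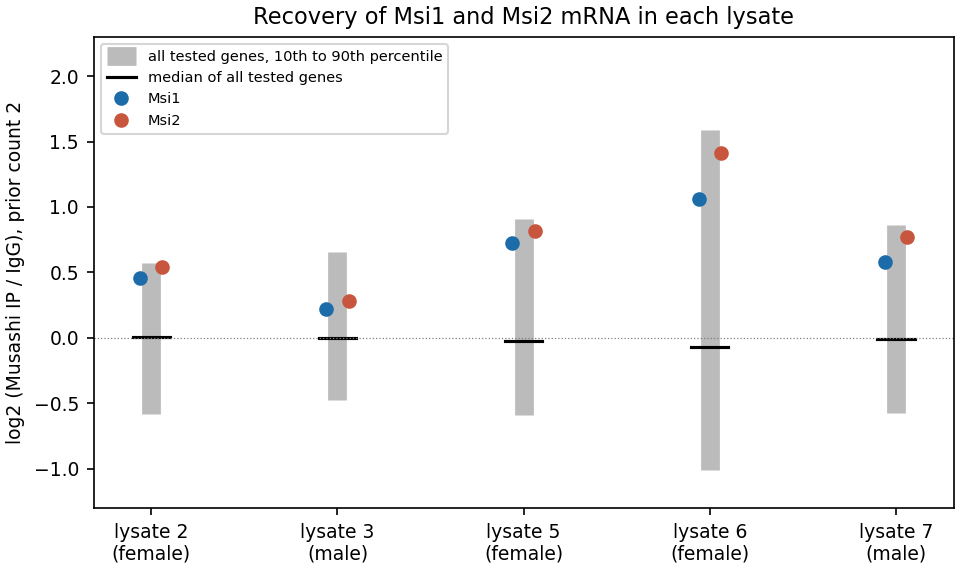
Log2 ratio of Musashi IP over IgG within each of 5 lysates (prior count 2) for Msi1 (blue) and Msi2 (red). Grey bars span the 10th to the 90th percentile of all tested genes and black lines mark their median; both mRNAs lie above the median in every lysate, and the grey bar is longest in lysate 6, from -1.01 to 1.59.

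Msi2 had a slightly higher recovery than Msi1 in each lysate. The log2 ratio of Msi2 minus that of Msi1 was 0.083, 0.059, 0.097, 0.35 and 0.19 in lysates 2, 3, 5, 6 and 7, a comparison in which library scaling cancels. The mean was 0.16 ± 0.12 (SD, n = 5), positive in 5 of 5 lysates, with a two-sided exact sign-flip permutation p of 0.0625. That is the smallest p this test can give with 5 lysates, so it could not pass 0.05 whatever the values. After correction of every library for exon length and GC content the mean was 0.38 ± 0.16, again positive in every lysate.

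Levels of different genes were compared per length, as CPM per kilobase of the union of annotated exons (5800 nt for Msi1 and 10405 nt for Msi2). In IgG, Msi1 was at 8.99 ± 1.97 and Msi2 at 32.7 ± 1.84 CPM per kilobase (SD, n = 5). In Musashi IP they were at 13.6 ± 2.4 and 57.1 ± 15.8 CPM per kilobase. Msi2 was therefore the more abundant in each library, by 2.79-fold to 4.60-fold in IgG (mean 3.77 ± 0.728) and by 2.95-fold to 5.25-fold in Musashi IP (mean 4.23 ± 1.01). With the length of the longest transcript in place of the exon union, the mean ratios were 3.29 ± 0.635 and 3.69 ± 0.884. Among 14202 protein-coding genes on the per-length scale, the IgG level of Msi1 exceeded 66.0% and that of Msi2 exceeded 97.0%. IgG levels describe RNA that came down without a Musashi antibody and are not a direct measure of tissue expression.

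The mRNAs differ widely in how many Musashi motifs their longest annotated 3' UTR holds. The 1 match in Msi1 is a density of 0.528 per kilobase, and 71.8% of the 13789 genes were at least as dense. The 10 matches in Msi2 are a density of 1.88 per kilobase, a density reached by 38.8% of genes, while 9.23% of genes held at least as many matches. The number in Msi2 goes with its length, since only 4.24% of genes had a 3' UTR at least as long, against 38.2% for Msi1. The medians over these genes were 2 matches, a length of 1444 nt and a density of 1.44 per kilobase. Counting the core UAG alone gave 11 in Msi1 and 71 in Msi2, numbers reached by 62.2% and 4.49% of genes.

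Shorter annotated 3' UTRs of these genes hold fewer or no matches. A shorter Msi1 transcript ends in a 3' UTR of 277 nt with 0 matches, and shorter Msi2 transcripts end in 3' UTRs of 803 nt with 3 and of 126 nt with 0. Gene-level counts do not show which of these transcripts was recovered.

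Over the tested genes, the share that rose in Musashi IP was larger in classes with more motifs. It was 12.6% of 3503 genes with 0 matches, 21.4% of 2493 genes with 1, the class of Msi1, and 43.8% of 1273 genes with 10 or more, the class of Msi2. The median log2 difference of these classes was -0.055, 0.051 and 0.35, so both Musashi mRNAs lay above the median of their own class. The median 3' UTR length moved with the class, from 501 nt with 0 matches to 941 nt with 1 and 4525 nt with 10 or more, and its part in these shares was not tested.

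**Figure D3:**
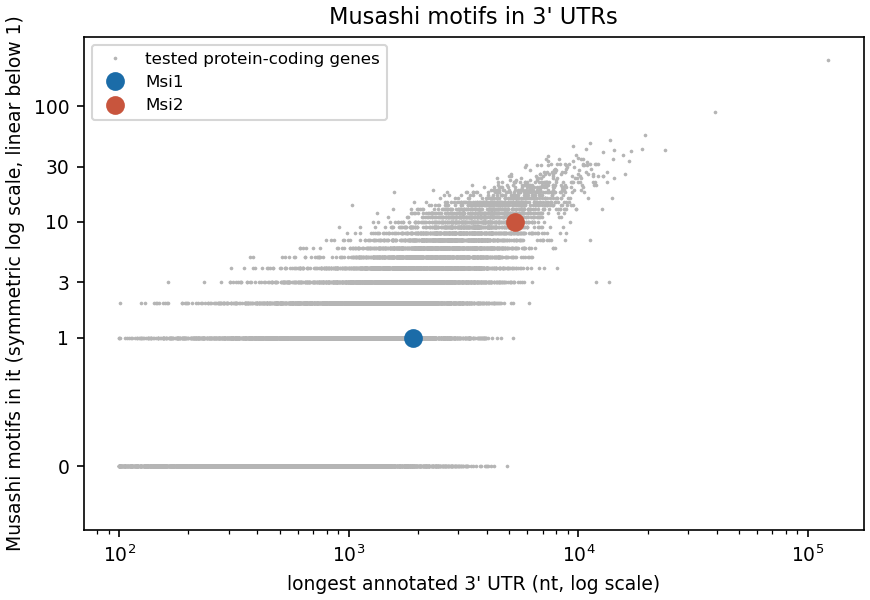
Number of Musashi motifs (symmetric log axis, linear below 1) against the length of the longest annotated 3' UTR in nt (log axis) for 13789 tested protein-coding genes (grey), Msi1 (blue) and Msi2 (red). Longer 3' UTRs hold more motifs; Msi1 has 1 in 1895 nt and Msi2 has 10 in 5310 nt.

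Other loci annotated inside or overlapping the gene spans did not rise with the mRNAs, and none of them is protein-coding. Of the 3804 genes that rose among 20550 tested, 3656 were among the 14202 protein-coding ones. Few genes of other kinds rose, so the contrast with Msi1 and Msi2 is shared by most such genes. Not given in the sources used here are the counting program and its strand setting, so reads of an antisense or intronic locus may not be fully separated from those of its host. None of the loci named here shares an exon base with Msi1 or Msi2 in the annotation. Inside or overlapping the Msi1 span lies the antisense RNA gene 4930430O22Rik, with 21 to 45 counts per library. Its log2 difference was -0.29 (SE 0.164, edgeR adjusted p = 0.203), lower in 5 of 5 lysates but past no threshold.

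Inside or overlapping the Msi2 span lies Gm11510, a processed pseudogene on the same strand. It fell from 6.59 ± 0.726 CPM in IgG to 4.05 ± 0.727 in Musashi IP (SD, n = 5 each), a log2 difference of -0.71 (SE 0.162) with an edgeR adjusted p of 0.0151, and was lower in 5 of 5 lysates. Of the 20550 genes tested, 1727 (8.4%) passed as lower. Of these, 569 were among the 14202 protein-coding genes tested, so most genes that fell were, like Gm11510, not protein-coding. The Gm11510 call rests on 30 to 61 counts per library. It was lost without lysate 5 (edgeR adjusted p 0.0649) and after correction for length and GC content (edgeR adjusted p 0.0706). The antisense gene Gm15893 had 43.8 ± 8.57 CPM in IgG and 41.0 ± 8.52 in Musashi IP, a log2 difference of -0.098 (SE 0.149) with an edgeR adjusted p of 0.632. The microRNA gene Mir378b, on the opposite strand, was at -0.23 (SE 0.166, edgeR adjusted p = 0.318).

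The nearest protein-coding neighbours passed no threshold either. Cox6a1, a subunit of cytochrome c oxidase beside Msi1, was at 0.033 (SE 0.157, edgeR adjusted p = 0.886), with a sign that changed with the scaling. Akap1, a mitochondrial anchoring protein beside Msi2, was at 0.14 (SE 0.115, edgeR adjusted p = 0.368), and its sign changed with the scaling as well. Pla2g1b and Ccdc182, on the other sides, had 1 to 6 and 0 to 1 counts per library and were not tested.

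**Figure D4:**
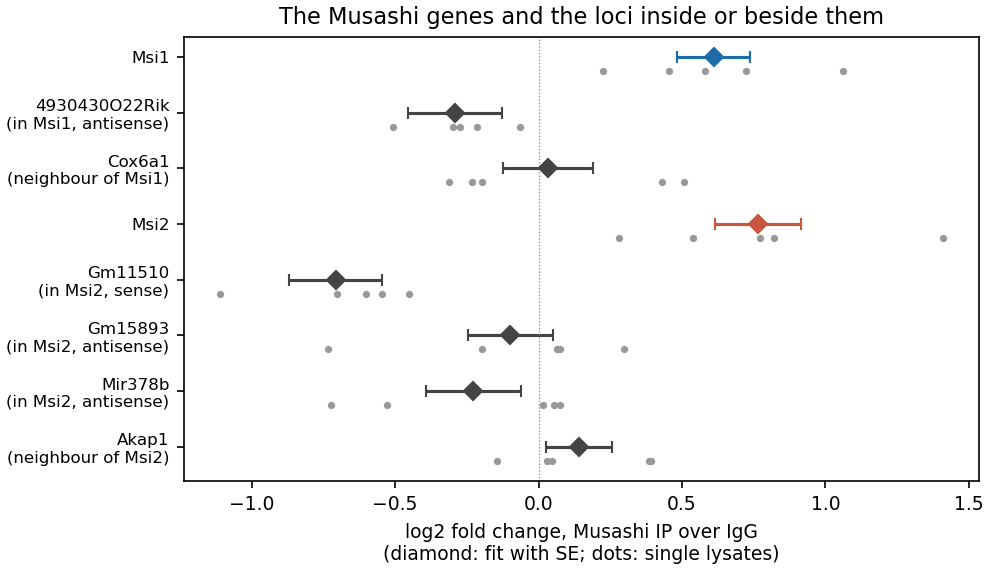
Log2 difference of Musashi IP over IgG for Msi1, Msi2, the loci inside or overlapping their spans and their tested protein-coding neighbours. Diamonds with bars are the fitted value and its SE, and grey dots are single lysates; all 5 dots of Msi1 and of Msi2 lie above 0 and all 5 of 4930430O22Rik and Gm11510 lie below 0.

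The antibody effect was compared between the sexes, with 3 female and 2 male lysates. The mean log2 ratio of Msi1 was 0.75 ± 0.30 in females (SD, n = 3) and 0.40 ± 0.25 in males (n = 2). That of Msi2 was 0.92 ± 0.45 and 0.53 ± 0.35. With TMM scaling the ranges of the sexes overlapped for both mRNAs, since male lysate 7 lay above female lysate 2. The female minus male difference was 0.35 for Msi1 (SE 0.259, 95% interval -0.254 to 0.946) and 0.40 for Msi2 (SE 0.297, 95% interval -0.29 to 1.08). Both had an edgeR adjusted p of 1. The interaction passed for 0 of 20550 genes (0%) by edgeR and for 0 by DESeq2, with 187 and 50 genes at an unadjusted p under 0.05. By edgeR that last count was 2146 without lysate 2, 461 without lysate 6, 61 without lysate 3 and 664 with no filter on low counts, and 0 genes passed after adjustment in each. The differences of the Musashi mRNAs depended on single lysates. Without lysate 6 they were 0.19 for Msi1 and 0.15 for Msi2. Without lysate 3, which leaves lysate 7 as the only male lysate, they were 0.18 and 0.17. Without lysate 2 they were 0.51 and 0.61. None of the differences without lysate 6 or without lysate 2 had an edgeR adjusted p under 0.05. The intervals leave room for differences of close to 2-fold in favour of females and for smaller ones in favour of males.

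Within 1 antibody, neither mRNA passed a test between the sexes. In IgG, Msi1 was at 52.6 ± 11.4 CPM in females and 51.4 ± 16.1 in males, and Msi2 at 335 ± 14.5 and 350 ± 27.6 (SD, n = 3 and 2). The log2 differences of females over males were 0.028 for Msi1 (95% interval -0.482 to 0.538, edgeR adjusted p = 0.974) and -0.070 for Msi2 (-0.417 to 0.277, adjusted p = 0.889), in a comparison where 4.5% of 20987 genes passed. Their signs changed when single lysates were left out. In Musashi IP, Msi1 was at 87.4 ± 9.13 CPM in females and 66.6 ± 9.53 in males, and Msi2 at 653 ± 194 and 506 ± 81.0. The log2 differences were 0.37 for Msi1 (-0.142 to 0.887, edgeR adjusted p = 0.464) and 0.34 for Msi2 (-0.292 to 0.968, adjusted p = 0.603), where 2.84% of 21238 genes passed. Without lysate 6 they were 0.35 and 0.13, and in IgG 0.13 and -0.044. With other lysates left out, Msi1 in Musashi IP was at 0.23 without lysate 7 and Msi2 at 0.20 without lysate 3. The fits without lysate 7 and without lysate 3 each rest on a lone male lysate. These comparisons used different lysates and were unpaired. In bulk tissue, fewer cells of a type and less RNA per cell cannot be told apart.

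The genes most like Msi1 and Msi2 over the 10 libraries were found by Pearson correlation of log2 CPM among 10918 protein-coding genes of at least 8 CPM. These points are 5 pairs that share a lysate, so the correlations describe these libraries and carry no p. For Msi1 the highest were Zbtb7a (0.978), a zinc-finger transcriptional repressor, then Wbp1l (0.976), Spsb1 (0.975), Mdc1 (0.970) and Sh3pxd2a (0.964). For Msi2 they were Rprd1b (0.994), Rcor1 (0.994), Rnf114 (0.993), Add1 (0.993) and Cpeb3 (0.993). Rcor1 is a corepressor subunit, and Cpeb3 binds cytoplasmic polyadenylation elements in 3' UTRs. By Spearman correlation, 2 of the 5 names for Msi1 and 1 of the 5 for Msi2 stayed among the highest 5.

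Msi1 and Msi2 had a Pearson correlation of 0.751 and a Spearman correlation of 0.733 with each other. Msi2 ranked 1921 in the order for Msi1, and Msi1 ranked 3368 in the order for Msi2. Correlations above 0.9 were found for 162 genes with Msi1 and for 1865 with Msi2. The median over all candidates was 0.326 with Msi1 and 0.333 with Msi2.

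The Musashi mRNAs were then set beside those of other RNA-binding proteins, in lists described by counts and medians alone. Of 20 factors that act on poly(A) tails, caps and 3' UTRs to control translation, 18 were tested, and 8 rose and 0 fell in Musashi IP, where 18.5% of all tested genes and 25.7% of protein-coding ones rose. Their median log2 difference was 0.32, beside -0.066 over all tested genes and 0.089 over protein-coding ones. All 18 but Pabpc1 and Pabpc4 held at least 4 Musashi motifs in the longest annotated 3' UTR. Of all genes with 4 to 9 motifs 36.1% rose, and of those with 10 or more 43.8%, beside 44.4% of these factors. The part of motifs and 3' UTR length in the count of factors was not tested. The smallest p among the factors that rose belonged to Celf1, a GU-rich element binder (0.98, SE 0.161, edgeR adjusted p = 0.00508). Ago2, the microRNA effector, followed (0.66, SE 0.116, adjusted p = 0.00625 by edgeR), then Lsm14b, a repressor found in ribonucleoprotein granules (0.93, SE 0.169, adjusted p = 0.00673 by edgeR), and the RNA helicase Ddx6 (1.08, SE 0.219, adjusted p = 0.0099 by edgeR). Cpeb3, Eif4e, Pum2 and Lsm14a also rose. The other 10 lay between -0.25 for Tent2, a cytoplasmic poly(A) polymerase, and 0.77 for Pabpc1, the poly(A)-binding protein (edgeR adjusted p = 0.112 and 0.0591). Pabpc1 passed as higher in 6 of 14 alternatives and Tent2 as lower in 5. Without lysate 6 Pabpc1 was at 0.44 (edgeR adjusted p = 0.014), and Tent2 was at -0.46 in protein-coding genes alone (edgeR adjusted p = 0.00471). Cpeb3 was at 0.63, and at 0.40 after correction for length and GC content. Without lysate 5, 3 of the 18 rose, with Ddx6 and Cpeb3 at edgeR adjusted p of 0.0523 and 0.0742, and without lysate 3 or lysate 7, 5 rose. Without lysate 7 Cpeb3 had an edgeR adjusted p of 0.056. In this list 7 mRNAs had a higher log2 difference than Msi1 and 4 a higher one than Msi2, while on the per-length scale in IgG 13 lay above Msi1 and 1 above Msi2. Lin28a and Dazl had too few counts to be tested.

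Musashi's closest relatives with tandem RRMs are the hnRNP A/B and D proteins, Dazap1 and Tardbp, 9 in all and all tested. Hnrnpa0 rose by 4.12-fold, a log2 difference of 2.04 (SE 0.343, edgeR adjusted p = 0.0053), and Hnrnpab by 0.66 (SE 0.145, edgeR adjusted p = 0.0131). Hnrnpa2b1 fell by 0.381 (SE 0.0851, edgeR adjusted p = 0.0139). The other 6 passed no threshold and lay between -0.23 for Tardbp and 0.40 for Hnrnpa3, and the median was 0.076. These shares, 2 and 1 of 9, stand beside 18.5% higher and 8.4% lower over all tested genes. Of 14202 protein-coding genes tested, 25.7% were higher and 569 genes were lower. Tardbp passed as lower in 6 of 14 alternatives, among them the fit without lysate 3 (-0.35, edgeR adjusted p = 0.0409), the fit without lysate 6 (-0.23, edgeR adjusted p = 0.04) and the fit of protein-coding genes alone (-0.43, edgeR adjusted p = 0.00809). Hnrnpa3 passed as higher in 5 of 14, among them the fits without lysate 2 (0.53, edgeR adjusted p = 0.0199) and without lysate 6 (0.27, edgeR adjusted p = 0.0373). In protein-coding genes alone Hnrnpa3 was at 0.19 and Hnrnpa2b1 at -0.59. Without lysate 5 the calls of Hnrnpab and Hnrnpa2b1 were lost (edgeR adjusted p = 0.0663 and 0.0783), as was that of Hnrnpa2b1 without lysate 2 (0.0503).

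In 21 members of other RNA-binding families, of which 20 were tested, 5 rose (25%) and 3 fell, with a median of 0.046. Of the 14202 protein-coding genes tested 25.7% rose and 569 genes fell, and of all genes tested 18.5% rose and 8.4% fell. The share of the list that rose was near that of protein-coding genes. The 4 that rose with the smallest p were Ptbp3 (1.14, SE 0.217), Rbfox2 (0.55, SE 0.105), Elavl3 (1.14, SE 0.225) and Ptbp1 (0.60, SE 0.124), with edgeR adjusted p of 0.00801, 0.00814, 0.00891 and 0.0103. Nova2 was the fifth. After correction for length and GC content Rbfox2 was at 0.27 and Ptbp1 at 0.30 (edgeR adjusted p = 0.041 and 0.0375), and in protein-coding genes alone they were at 0.34 and 0.39. The 3 that fell were Tia1 (-0.37, SE 0.0822), Ptbp2 (-0.37, SE 0.0927) and Igf2bp2 (-0.41, SE 0.131), with edgeR adjusted p of 0.0137, 0.0215 and 0.048. In protein-coding genes alone they were at -0.58, -0.58 and -0.62. Members of a single family went both ways: among the polypyrimidine tract binders Ptbp1 and Ptbp3 rose and Ptbp2 fell. Without lysate 5 the calls of Ptbp1, Tia1, Ptbp2 and Igf2bp2 were lost (edgeR adjusted p = 0.0584, 0.0733, 0.089 and 0.0674). That of Igf2bp2 was lost when any 1 lysate was left out (0.0512 to 0.138). Ptbp2 also lost its call without lysate 2 (0.0915), without lysate 7 (0.0579) and after correction for length and GC content (-0.15, edgeR adjusted p = 0.188), and Tia1 lost it without lysate 7 (0.052).

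**Figure D5:**
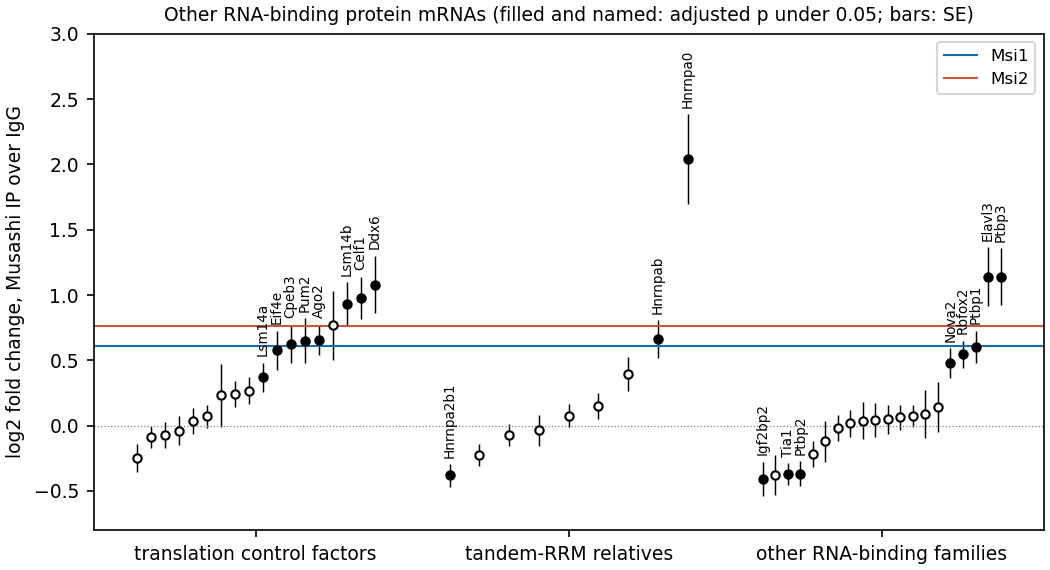
Log2 difference of Musashi IP over IgG, with its SE, for tested mRNAs of other RNA-binding proteins in 3 lists. Filled, named points passed an adjusted p of 0.05 and open points did not; the lines mark Msi1 at 0.61 and Msi2 at 0.77, and Hnrnpa0 at 2.04 is the highest point.

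Markers of cell types that a pituitary lysate can hold were followed beside the Musashi mRNAs. Over all tested genes 18.5% rose and 8.4% fell, and of 14202 protein-coding genes 25.7% rose and 569 genes fell. Among 8 markers of stem or progenitor cells 5 rose and 0 fell, with Sox2 not among those that passed (edgeR adjusted p = 0.064), and their summed level was 77.4 to 172 CPM in IgG and 175 to 240 CPM in Musashi IP. Of 4 tested erythroid markers 3 fell, from a summed 461 to 1250 CPM to 271 to 688. Of 5 immune markers 2 fell (37.7 to 57.0 CPM and 32.4 to 49.4). None of 6 endothelial markers passed, and 2 of 8 anterior pituitary and 1 of 5 neuronal markers rose, shares near that of all tested genes. No marker was at 0 over all libraries. Since both libraries of a pair came from 1 lysate, these values describe recovery from the same tissue, and their part in the values of Msi1 and Msi2 was not tested.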

How the data were processed

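The authors deposited a table of raw counts per Ensembl gene, in whole numbers with no normalization. Libraries were made with a stranded total RNA kit, per the labels' protocols. Per the submitters' processing notes, the tools were FastQC 0.11.8, Trimmomatic 0.39 and STAR 2.7.1a, and the build was GRCm39. Not given in the sources used here are the counting program, its annotation, its strand setting and its handling of multi-mapping reads.

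Symbols, lengths and 3' UTRs came from GENCODE M21 by Ensembl ID (52135 IDs, 94.1%, matched). As that annotation is on GRCm38, no coordinates are given. Tests ran in R 4.3.3 with edgeR 4.0.16 (filterByExpr, TMM scaling, quasi-likelihood test, Benjamini-Hochberg adjustment over all genes tested, threshold 0.05). An SE is the log2 difference divided by the square root of F, and intervals use the t quantile. Within-lysate ratios used a prior count of 2. DESeq2 1.42.0, limma 3.58.1 (voom) and mgcv 1.9.3 (length and GC offsets) served for alternatives. The scripts were tested on simulated data.

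Each lysate was split between the antibodies, which pairs libraries of the same number. Their deviations from the group means correlated at 0.523, 0.679, 0.602, 0.186 and 0.778 in lysates 2, 3, 5, 6 and 7. In lysate 6 this was below the highest value of its IgG library against the Musashi IP libraries of other lysates (0.415), and in the other 4 lysates it was above it. No libraries held identical values. The labels place the immunoprecipitations on separate occasions, so lysates were taken as separate mice.

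The mRNAs described, the gene lists and the tests were chosen with earlier results of these data known. Values are given for at most 4 list members per direction, those of smallest p, and for the 5 most similar genes. They are also given for loci inside, overlapping or beside each gene.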

Additional observations from a re-analysis of the deposited data

How the results depend on the processing

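Msi1 kept its direction in 14 of 14 alternatives to the antibody test and its call in 13 (log2 0.312 to 0.698), losing it without lysate 5 (adjusted p 0.0614). Msi2 kept both in 14 of 14 (0.556 to 0.87), with a highest adjusted p of 0.0479 by edgeR. With single lysates left out, Msi1 ran from 0.496 to 0.698 and Msi2 from 0.605 to 0.87. Without the replicate block Msi1 was at 0.602 (adjusted p 0.0421 by edgeR) and Msi2 at 0.804 (0.0098), 2407 genes were higher and 176 lower, and in the sex comparison the difference was 0.358 and 0.432. Library totals moved the median of all genes by -0.175.

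Genes called lower numbered 4068 with library totals, 3214 at a minimum of 2 CPM in 5 libraries, 2973 in protein-coding genes alone and 3152 after length and GC correction. Under the same 4 settings, those lower were 1, 1, 2 and 1 of the translation control factors and 2, 2, 3 and 3 of the tandem-RRM relatives, and the first 3 settings gave 5 of the other families each. Without the block, 1 relative was higher and 0 lower, and 3 of the other families were higher and 0 lower. With single lysates left out, 1676 to 4651 genes were higher (1676 without lysate 5, 2288 without lysate 7) and 187 to 2101 lower (187 without lysate 5, 597 without lysate 7). The factors then had 3 to 9 higher and 0 to 1 lower, the relatives 1 to 3 and 0 to 2, and the other families 3 to 5 and 0 to 3.

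Signs changed for values near 0. Cox6a1 was at -0.14 with library totals, -0.062 at the 2 CPM minimum, -0.174 in protein-coding genes, -0.0134 without the block, -0.0917 without lysate 6, and from -0.15 to 0.156 over the lysates left out. Akap1 was at -0.0348 with library totals, -0.0679 in protein-coding genes and -0.148 after length and GC correction. Mir378b was at 0.0343 after that correction and Gm15893 at -0.212 to 0.059 with a lysate left out. For females over males in IgG, Msi1 was at -0.0699 with library totals and from -0.258 to 0.392 with a lysate left out, and Msi2 from -0.145 to 0.015. The cause of these changes was not tested. With UAG alone as the motif, 62.2% of genes had at least as many as Msi1 and 4.49% as Msi2, beside 74.6% and 9.23%. Gm11510, 4930430O22Rik and Mir378b had at most 61, 45 and 106 counts per library, and the part of depth in their values was not tested.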
